A study of Mus musculus with 16 samples.

Results

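The ubiquitin-specific proteases are the largest family of deubiquitinases, the enzymes that take ubiquitin off proteins, and they were followed here in quadriceps muscle of mice that carried the C26 tumour. Members were taken by symbol: every gene of the count table named Usp followed by a digit, without Usp18, which gave 44 of the 13320 genes measured. One of them, Usp6nl, carries the symbol but encodes a GTPase-activating protein and no protease. Usp genes that did not reach the table were not analysed here.

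The mice were CD2F1 males, aged 8 weeks when the experiment began, and their messenger RNA was sequenced in 4 groups of 4 libraries. C26 is a colon carcinoma line of the mouse whose growth is accompanied by loss of body weight and muscle. In splenic C26 mice the cells were put into the spleen, from which they seeded the liver, and sham mice were operated on and given saline. In subcutaneous C26 mice the tumour grew beneath the skin. What control mice received is not stated in the labels. Each tumour group was set against the tumour-free group that shares its title prefix, so the 2 tumour comparisons share no library. Nothing in the labels ties each library to an animal of its own, so the p-values rest on the spread between libraries, and that spread may be technical.

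Ubiquitin is joined to proteins by E3 ligases, and chains of it send proteins to the proteasome. Deubiquitinases cut such chains, which can spare a protein, switch a signal off or return ubiquitin to the free pool. In wasting muscle the best known part of this system is the pair of E3 ligases encoded by Trim63 (MuRF1) and Fbxo32 (atrogin-1). In these libraries the log2 fold change of Trim63 was 4.64 ± 0.40 (SE) in splenic C26 over sham muscle and 4.33 ± 0.40 in subcutaneous C26 over control muscle, and that of Fbxo32 was 3.81 ± 0.30 and 3.80 ± 0.30. Among Usp genes, Usp19 is known from wasting muscle of rats and mice.

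Libraries held 25.9 to 34.9 M counts. On the first principal component, which carried 65.4% of the variance of all genes, 6 tumour libraries scored 64.6 to 93.3 and tumour-free ones −60.8 to −55.4, with −6.31 for splenic C26 replicate 1 and 6.003 for subcutaneous C26 replicate 3. The last 2 are called the intermediate tumour libraries below. Summed muscle fibre markers (8 genes) stood at 167757 to 213137 CPM (counts scaled to the library size) in splenic C26, 130700 to 181990 in sham, 112846 to 293026 in subcutaneous C26 and 138727 to 226486 in control muscle, so transcripts of muscle fibres were abundant in every library. Summed markers of fibro-adipogenic progenitors (6 genes) were lower with a tumour, at 382 to 1296 CPM in splenic C26 against 1493 to 1858 in sham, and 436 to 826 in subcutaneous C26 against 1161 to 2107 in control muscle. Not all 6 fell: 4 were called lower and 0 higher over sham, with the highest log2 fold change at 0.36. Over control 3 were called lower and 1 higher, at 0.71. Hepatocyte markers (8 genes) summed to 132 CPM in replicate 1 of the splenic C26 group, where the other 3 libraries had 1.09 to 2.24, against 0.410 to 3.56 in sham, and to 0.994 to 2.95 in subcutaneous C26 against 30.2, 142, 44.3 and 231 in control replicates 1 to 4. Endothelial markers (6 genes) summed to 197 to 367 CPM in splenic C26 against 227 to 281 in sham, and to 155 to 207 in subcutaneous C26 against 280 to 316 in control muscle. Of these, 3 were called higher and 1 lower over sham, and 0 higher and 3 lower over control. Macrophage markers (5 genes) summed to 70.2 to 163 CPM in splenic C26 against 104 to 132 in sham. In subcutaneous C26 they summed to 63.1 to 170 CPM against 62.9 to 126 in control muscle. Over sham 1 of them was called higher and 1 lower, and over control 0 either way. Red blood cell markers (3 genes) summed to 11.6 to 46.0 CPM in splenic C26 against 4.04 to 5.72 in sham, and to 8.60 to 131 in subcutaneous C26 against 3.70 to 14.1 in control muscle. Neutrophil and marrow markers (7 genes) reached 164 CPM in splenic C26 replicate 3 and 45.7 in control replicate 1, with 3 of the 7 at 0 in all sham libraries, and proliferation markers (2 genes) 61.4 in subcutaneous C26 replicate 4. The part of these transcripts in the changes of Usp genes was not tested.

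Muscle without a tumour already differed widely in how much of each Usp transcript it held. Levels of different genes were compared as CPM per kb of exon, over the 8 sham and control libraries, and the union of all annotated exons used as length understates genes with many isoforms. Usp2, which has a short form driven by the circadian clock, stood at 54.4 ± 8.14 CPM per kb (SD, n = 8), and Usp13, a paralog of the free-chain protease Usp5, at 52.7 ± 7.5. Their ranges, 43.277 to 66.6 for Usp2 and 43.802 to 62.7 for Usp13, overlapped, so the order of these 2 was not resolved. Next came Usp47, a regulator of base excision repair, at 37.1 ± 6.2, Usp19, which is anchored in the endoplasmic reticulum, at 35.7 ± 3.26 and Usp25, which in humans has a muscle isoform, at 34.8 ± 4.79, and these 3 overlapped each other, Usp47 reaching into the range of Usp2 too. Usp24 followed at 18.9 (15.1 to 23.6), below the ranges of those 5. Usp28 came next at 14.4, and the order below it was mostly unresolved: over the whole family, 37 of 43 neighbouring pairs had ranges that overlapped. At the bottom stood Usp35 at 0.209, Usp27x at 0.127 and Usp29 at 0.0207 CPM per kb, with at most 63 counts in any library.

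**Figure D1:**
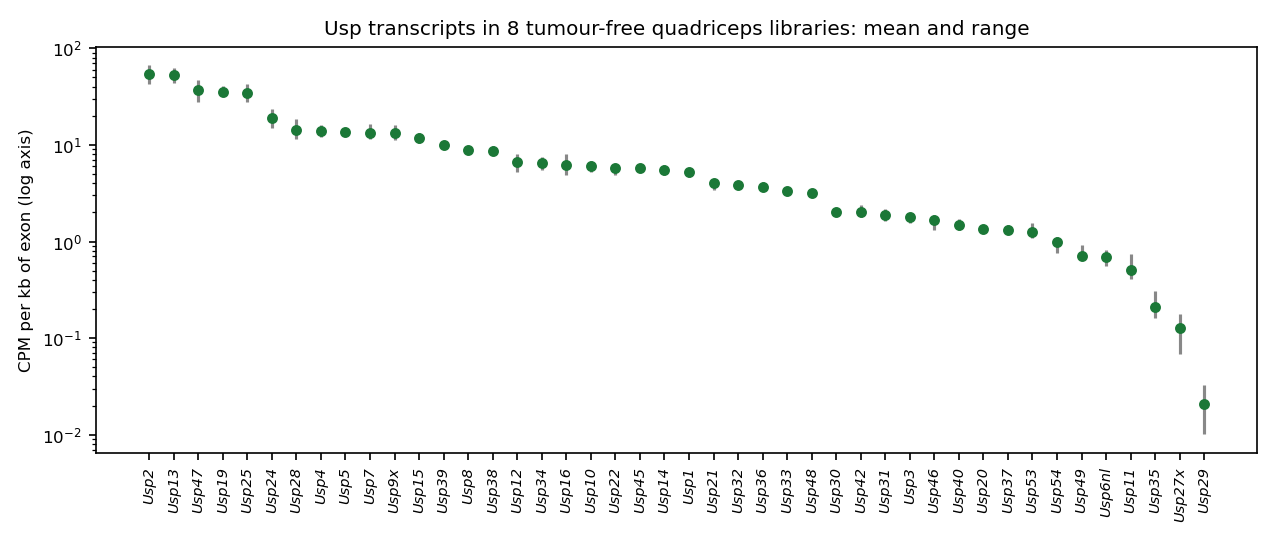
Level of each of the 44 Usp genes in the 8 libraries without a tumour, as CPM per kb of exon on a log axis; points are means and bars run from the lowest to the highest library. Usp2 and Usp13 stand at the top with 54.4 and 52.7 CPM per kb and Usp29 at the bottom with 0.0207.

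With a tumour, Usp transcripts were more often higher than lower. In splenic C26 over sham muscle 25 of 44 members rose, 2 fell and 17 did not pass edgeR's quasi-likelihood test at a Benjamini-Hochberg adjusted p of 0.05, against 28.1% of all genes higher and 23.9% lower (52 percent either way). In subcutaneous C26 over control muscle 26 rose, 3 fell and 15 did not pass, against 27 percent of all genes higher and 23.1% lower (50 percent either way). In shares, 56.8% of members rose and 4.55% fell with the splenic tumour, and 59.1% rose and 6.82% fell with the subcutaneous tumour. The median log2 fold change of the 44 was 0.47 (range −0.80 to 2.12) in splenic C26 over sham and 0.45 (range −1.05 to 1.67) in subcutaneous C26 over control, where the medians of all genes were −0.03 and −0.02. Usp29 is counted among the 26, although it may have passed the filter on low values through the subcutaneous C26 group. There all 4 libraries exceeded 0.5 CPM after TMM scaling, against 3 of the other 12 libraries. In bulk muscle, more RNA per cell and more cells of a type that carries a transcript cannot be told apart.

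How many members were called higher or lower depended on the scaling, while their median stayed above that of all genes. Upper-quartile scaling moved the median of all genes to −0.24 in splenic C26 over sham and −0.26 in subcutaneous C26 over control, and the medians of the 44 members to 0.25 and 0.20. Under it 15 members were higher and 7 lower with the splenic tumour, which made higher calls 68.2% of Usp calls against 92.6% under the TMM scaling used throughout. With the subcutaneous tumour 16 were higher and 5 lower, or 76.2% against 89.7%. Over all genes, higher calls were 38.5% and 34.9% of calls under upper-quartile scaling, against 54.0% and 53.9% under TMM. Without both intermediate tumour libraries the counts were 27 higher and 5 lower in splenic C26 over sham, and 28 higher and 3 lower in subcutaneous C26 over control, while calls over all genes went up as well, to 65.3% and 62.6% of genes. Without splenic C26 replicates 1 and 3, control replicate 1 and subcutaneous C26 replicate 4, chosen for markers of other tissues, they were 25 and 3, and 19 and 1, with 54.2% and 44.5% of all genes called. Control replicates 2, 3 and 4, with more hepatocyte transcripts than control replicate 1, stayed in. Leaving out subcutaneous C26 replicate 2 alone lowered the 26 to 17, where 38 percent of all genes passed and higher calls were 89.5% of Usp calls.

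**Figure D2:**
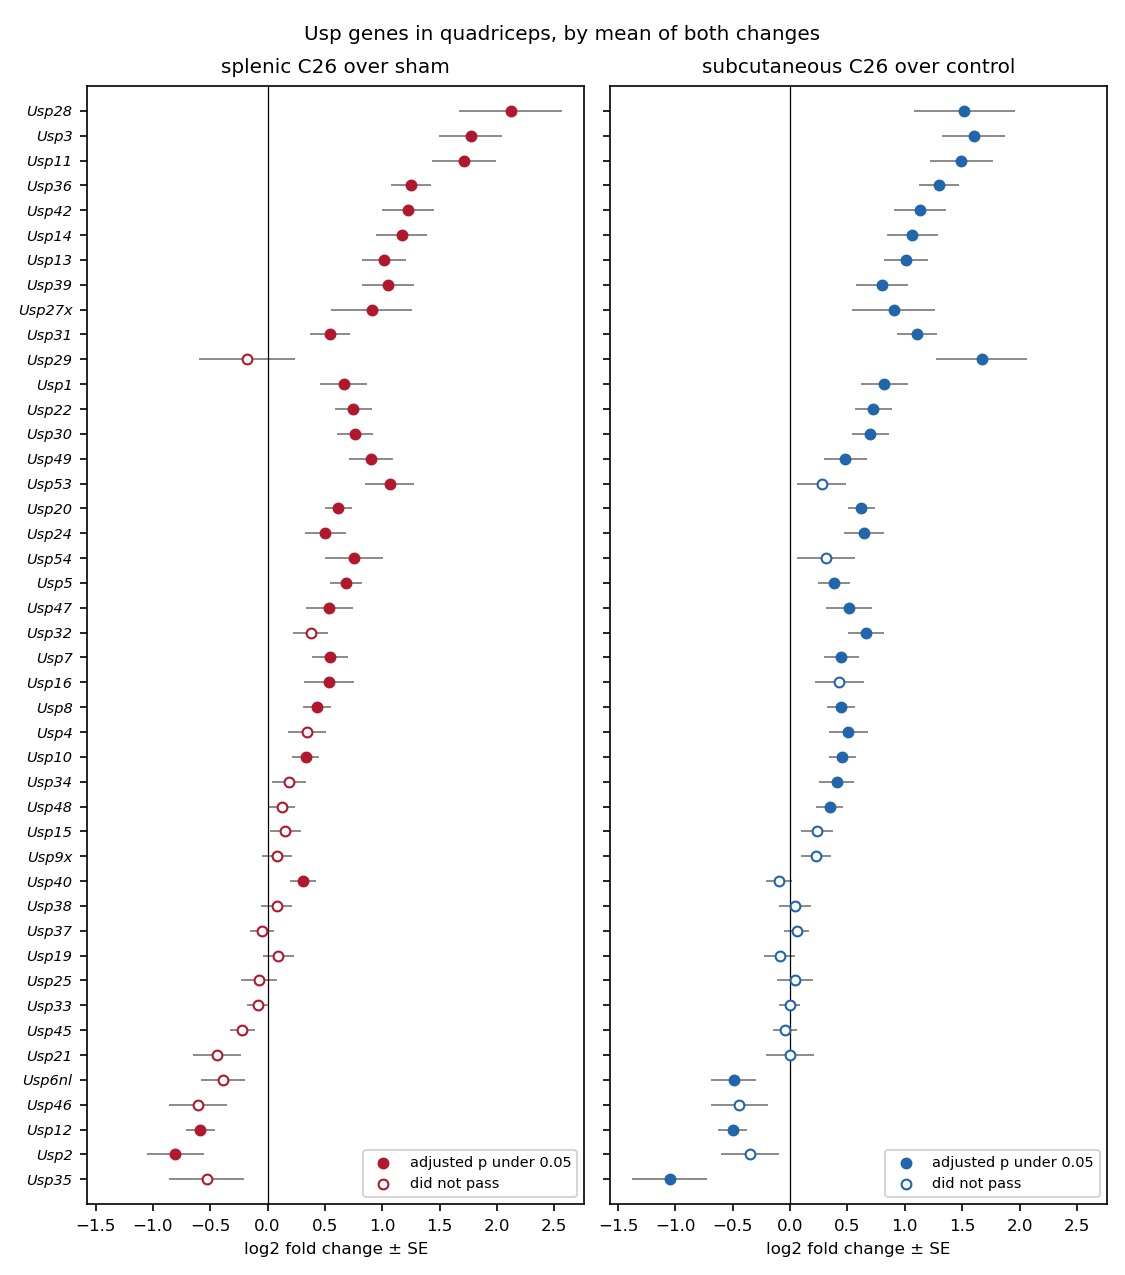
Log2 fold change of each of the 44 Usp genes with its standard error in splenic C26 over sham muscle (left) and in subcutaneous C26 over control muscle (right), sorted by the mean of both; filled points passed an adjusted p of 0.05. Filled points lie to the right of 0 for 25 and 26 genes and to the left for 2 and 3.

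Many members changed alike at both tumour sites. Of the 44, 21 rose in both comparisons (47.7%, against 22.1% of all genes). Usp12 alone fell in both (2.27% of members, against 16.5% of all genes), 0 changed in opposite directions, and 10 passed in neither. Usp16, Usp40, Usp53 and Usp54 rose and Usp2 fell in splenic C26 muscle without passing in subcutaneous C26 muscle, while Usp4, Usp29, Usp32, Usp34 and Usp48 rose and Usp6nl and Usp35 fell in subcutaneous C26 muscle without passing in splenic C26 muscle. Those 12 are not shown to differ between the sites, since 0 of the 44 passed the test of the difference between the tumour effects, given further below. The CPM ranges of the groups did not overlap, with the tumour group higher, for 18 members in splenic C26 over sham (21.1% of all genes) and 23, Usp29 among them, in subcutaneous C26 over control (25.2% of all genes), and for 14 in both (16.7% of all genes). They did not overlap, with the tumour group lower, for 2 members at each site (21.1% and 20.7% of all genes). Of the 22 that passed in both comparisons, 12 passed in both under every alternative setting run, apart from the rule that a call also needs 1.5-fold, which Usp12 missed over control. Besides Usp12 these were Usp3, Usp11, Usp13, Usp14, Usp20, Usp22, Usp28, Usp30, Usp36, Usp39 and Usp42. Each of the other 10 lost the call in at least 1 comparison under at least 1 alternative.

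**Figure D3:**
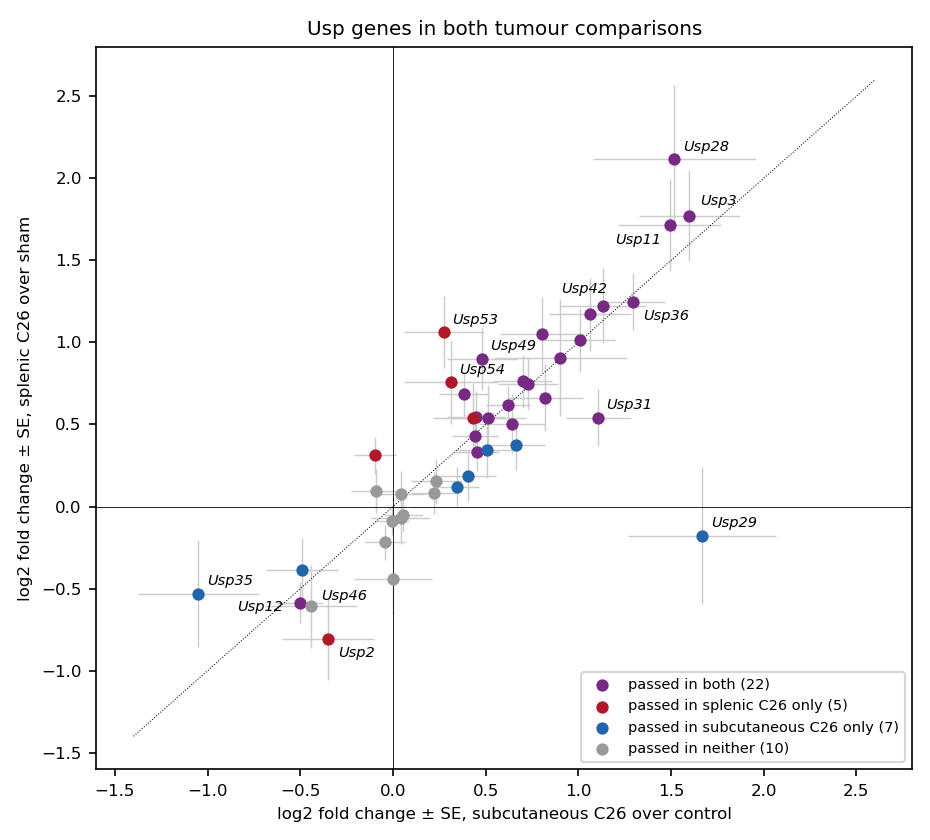
Log2 fold change with standard error of each Usp gene in subcutaneous C26 over control (horizontal axis) and in splenic C26 over sham (vertical axis), coloured by where it passed an adjusted p of 0.05, with the line of equal change dotted. Most members lie at the upper right near the line (22 passed in both), Usp29 lies far to the right of it and Usp53 above it.

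The members with the largest rise in both comparisons were Usp28, Usp3 and Usp11, and Usp12 fell in both. The bases before a RefSeq start of these genes are shown, with Usp13 as the most abundant per kb of the members that rose. Each line gives the 250 bases before the RefSeq start on GRCm38.p6, 5′ to 3′ on the gene's strand, with CCAAT or its reverse complement ATTGG in capitals. By the GENCODE coordinates used for the genes, each of these genes starts inside its window. The end of each window, and in Usp13 the capitals too, thus lies within the gene as GENCODE draws it.
Usp28, chr9:48985135-48985384, plus strand: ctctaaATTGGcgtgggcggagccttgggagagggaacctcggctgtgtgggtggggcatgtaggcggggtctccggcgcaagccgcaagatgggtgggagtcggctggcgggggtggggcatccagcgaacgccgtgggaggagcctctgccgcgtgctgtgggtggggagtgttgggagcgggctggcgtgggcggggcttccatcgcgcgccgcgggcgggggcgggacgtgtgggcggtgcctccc
Usp3, chr9:66593116-66593365, minus strand: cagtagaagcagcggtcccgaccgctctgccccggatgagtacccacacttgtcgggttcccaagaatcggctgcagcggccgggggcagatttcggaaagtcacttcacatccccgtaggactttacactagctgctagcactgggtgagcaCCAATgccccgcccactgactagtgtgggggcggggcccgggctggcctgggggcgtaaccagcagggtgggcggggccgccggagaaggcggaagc
Usp11, chrX:20703659-20703908, plus strand: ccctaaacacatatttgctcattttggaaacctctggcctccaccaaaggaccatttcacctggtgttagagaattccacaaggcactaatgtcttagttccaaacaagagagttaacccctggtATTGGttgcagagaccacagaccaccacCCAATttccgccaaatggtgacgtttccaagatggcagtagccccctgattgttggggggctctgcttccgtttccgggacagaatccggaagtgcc
Usp13, chr3:32817376-32817625, plus strand: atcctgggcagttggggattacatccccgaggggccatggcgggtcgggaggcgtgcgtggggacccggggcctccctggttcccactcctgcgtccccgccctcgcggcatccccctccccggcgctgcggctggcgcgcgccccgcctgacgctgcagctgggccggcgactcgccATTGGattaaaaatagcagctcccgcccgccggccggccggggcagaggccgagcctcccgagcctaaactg
Usp12, chr5:146794957-146795206, minus strand: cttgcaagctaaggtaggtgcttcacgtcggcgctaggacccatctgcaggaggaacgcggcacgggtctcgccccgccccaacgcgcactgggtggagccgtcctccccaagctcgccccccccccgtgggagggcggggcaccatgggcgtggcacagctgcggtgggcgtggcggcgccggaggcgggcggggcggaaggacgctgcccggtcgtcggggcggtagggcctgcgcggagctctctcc

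Such windows were at hand for 35 members (36 windows). CCAAT was found on either strand in 7 of the 36 (19.4%), against 33.8% of 32851 windows of all genes. It occurred once in the windows of Usp28, Usp3 and Usp13, in both orientations in that of Usp11, and not in that of Usp12. Usp7, Usp29 and Usp49 were the other members with a match. Many members that rose in both comparisons had none, namely Usp8, Usp10, Usp20, Usp24, Usp27x, Usp30, Usp31, Usp36 and Usp47. GTAAACA, the letters of a FoxO site, was in 0 of 36 Usp windows and 3.17% of all windows, TTCNNNGAA, those of a STAT site, in 1 of 36 (Usp27x) and 7.02%, and the E-box CACGTG in 4 of 36 (Usp4, Usp6nl, Usp16 and Usp31) and 6.02%. A match describes letters in this window and says nothing of binding.

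The proteases that act at the proteasome and on free ubiquitin chains, Usp14, Usp5 and Usp13, were all higher in both comparisons (3 of 3). Of all genes, 22.1% were higher in both. Usp14, which sits on the proteasome and trims chains from its substrates, had 53.1, 113, 114 and 142 CPM in splenic C26 muscle, against 51.2, 44.2, 50.9 and 41.2 CPM in sham muscle. In subcutaneous C26 muscle it had 90.6, 109, 74.5 and 112 CPM, against 48.3, 45.7, 42.1 and 48.3 CPM in control muscle. All 8 tumour libraries lay above their tumour-free group, but splenic C26 replicate 1 by a small margin only. Its log2 fold change was 1.17 ± 0.22 (adjusted p = 0.000804) over sham and 1.06 ± 0.22 (adjusted p = 0.00154) over control, with the standard error after ±. Of its exon bases 26 percent overlap the gene Thoc1 on the other strand, and without a stated strand setting reads of the 2 cannot be told apart there.

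Usp13 (chr3:32817546-32938071, plus strand) had 545, 926, 835 and 889.5 CPM in splenic C26 muscle, against 403, 334, 389 and 455 CPM in sham muscle, or means of 799 ± 174 and 395 ± 49.8 (SD, n = 4 each). At the subcutaneous site it had 740.4, 943, 661 and 918 CPM, against 359, 333, 456 and 476 CPM in control muscle. It was already among the most abundant members without a tumour, and every tumour library exceeded every matching tumour-free one. The log2 fold change was 1.01 ± 0.19 (adjusted p = 0.000789) over sham and 1.01 ± 0.19 (adjusted p = 0.000877) over control. Usp5 (chr6:124815019-124829484, minus strand), which takes unanchored ubiquitin chains apart, had 72, 94.4, 113 and 119.9 CPM in splenic C26 muscle, against 61.9, 63.1, 60.5 and 63.1 CPM in sham muscle. With the subcutaneous tumour it had 76.7, 86.2, 73.9 and 95.1 CPM, against 63, 64, 65.2 and 62.4 CPM in control muscle. The groups did not overlap at either site, and the tumour-free libraries of Usp5 were close together. Its log2 fold change was 0.68 ± 0.14 (adjusted p = 0.00112) over sham and 0.38 ± 0.14 (adjusted p = 0.0298) over control. The call of Usp5 over control was lost in 10 of 27 alternatives. Within libraries, the ratio of Usp5 to Usp13 reads was 0.102 to 0.135 in splenic C26 against 0.139 to 0.189 in sham, and 0.0913 to 0.112 in subcutaneous C26 against 0.131 to 0.192 in control muscle, so the ratio was lower in every tumour library than in its tumour-free match. The difference between the paralogs was not tested.

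Of the 8 members listed here for taking ubiquitin off histones or for work in chromatin complexes, 7 rose in splenic C26 muscle and 6 in subcutaneous C26 muscle, and 0 fell. Their shares higher were 87.5% and 75%, against 28.1% and 27% of all genes. The list was drawn up with earlier results known and is not complete, so these counts depend on it. Usp12, which fell at both sites, and Usp46 were counted with the DNA repair members instead. The calls of Usp16 over sham and of Usp27x at both sites, counted here, were lost in 16 of 27, 11 of 26 and 16 of 26 alternatives. Over control, the calls of Usp49 and Usp7, counted here too, were lost in 17 of 27 and 7 of 27 alternatives. Usp3 (chr9:66514637-66593142, minus strand), a protease of histones H2A and H2B, had 21, 38.9, 46.7 and 56.4 CPM in splenic C26 muscle, against 12.4, 12.4, 12.1 and 10.8 CPM in sham muscle. Subcutaneous C26 libraries gave it 38.9, 46.2, 19.2 and 46.4 CPM, against 11.8, 13.4, 12.3 and 12.2 CPM in control muscle. The tumour-free libraries were tightly grouped, the intermediate tumour libraries (splenic C26 replicate 1 and subcutaneous C26 replicate 3) were the lowest of their groups, and no group overlapped its match. Usp3 had a log2 fold change of 1.77 ± 0.28 (adjusted p = 0.000242) over sham and 1.60 ± 0.27 (adjusted p = 0.000433) over control.

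Usp11 (chrX:20703906-20720539, plus strand), a nuclear protease linked to BRCA2 and the Polycomb complex, was a low transcript with 4.44, 9.64, 7.19 and 7.92 CPM in splenic C26 muscle, against 1.91, 2.16, 2.46 and 2.33 CPM in sham muscle. Its subcutaneous C26 values were 8.5, 10.4, 4.39 and 6.37 CPM, against 3.54, 2.69, 2.107 and 2.17 CPM in control muscle. Tumour and tumour-free libraries were apart at both sites, by the least between subcutaneous C26 replicate 3 and control replicate 1. The log2 fold change was 1.71 ± 0.28 (adjusted p = 0.000327) over sham and 1.49 ± 0.28 (adjusted p = 0.000739) over control. Its relatives Usp4 and Usp15, which share its domain plan and act on TGF-β signalling, had smaller log2 fold changes, Usp4 with 0.34 ± 0.17 (adjusted p = 0.0988) and 0.51 ± 0.17 (adjusted p = 0.022), and Usp15 with 0.15 ± 0.14 (adjusted p = 0.355) and 0.23 ± 0.14 (adjusted p = 0.168). The ratio of Usp11 to Usp15 reads was 0.0261 to 0.0378 in splenic C26 against 0.00907 to 0.0123 in sham libraries, and 0.0180 to 0.0420 in subcutaneous C26 against 0.00961 to 0.0203 in control libraries, so it overlapped at the subcutaneous site.

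Among the other chromatin members, Usp22, the histone protease of the SAGA complex, had 50.7, 52, 36 and 57.9 CPM in splenic C26 muscle, against 30.8, 30.0, 27.9 and 28.4 CPM in sham muscle. In subcutaneous C26 muscle it had 47.5, 52.5, 32.1 and 51.1 CPM, against 30.3, 29.5, 27.2 and 23.7 CPM in control muscle. All tumour libraries stood above their match, and the log2 fold change was 0.75 ± 0.16 (adjusted p = 0.00183) over sham and 0.73 ± 0.16 (adjusted p = 0.00225) over control. Its X-linked relative Usp27x had only 0.658 to 1.63 CPM in splenic C26 against 0.295 to 0.752 CPM in sham muscle, with a log2 fold change of 0.91 ± 0.36 (adjusted p = 0.0434), and 0.90 ± 0.36 (adjusted p = 0.0474) in subcutaneous C26 over control. Usp7, which acts on MDM2 and p53, rose by 0.55 ± 0.16 (adjusted p = 0.00966) and 0.45 ± 0.16 (adjusted p = 0.0271) on the log2 scale. Usp49, a histone H2B protease, rose by 0.90 ± 0.19 (adjusted p = 0.00157) and 0.48 ± 0.19 (adjusted p = 0.0458). Its exons overlap Gm20517 and Tomm6, and the larger of these overlaps takes 51.2% of its exon bases, so part of its reads may belong to them. Usp16, a histone H2A protease, rose in splenic C26 muscle at 0.54 ± 0.22 (adjusted p = 0.0481), while splenic C26 replicate 1 at 45.4 CPM lay below all sham libraries (50.0 to 62.9 CPM). It did not pass in subcutaneous C26 muscle at 0.43 ± 0.22 (adjusted p = 0.109), although its groups did not overlap there. Usp21 was the exception of the list in both comparisons, at −0.44 ± 0.21 (adjusted p = 0.0909) over sham and 0.00 ± 0.21 (adjusted p = 0.998) over control. In splenic C26 muscle it was split, with 18.5, 18.9, 8.98 and 10.9 CPM, against 19.6, 17.3, 19.8 and 21.3 CPM in sham muscle.

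Usp28 (chr9:48985375-49042517, plus strand), which stabilises Myc and DNA damage proteins, had the largest log2 fold change of the 44 in splenic C26 muscle, with a wide spread between libraries. It had 82.7, 272, 364 and 593 CPM in splenic C26 muscle, against 83.7, 67.6, 74.2 and 76.7 CPM in sham muscle. At the subcutaneous site it had 261, 354, 105 and 336 CPM, against 88.9, 86.5, 85.6 and 108 CPM in control muscle. Splenic C26 replicate 1 lay inside the sham range and subcutaneous C26 replicate 3 inside the control range, while the other 6 tumour libraries lay far above. Means were 328 ± 212 CPM in splenic C26 and 75.5 ± 6.65 CPM in sham muscle (SD, n = 4 each), with a log2 fold change of 2.12 ± 0.45 (adjusted p = 0.00164), and 264 ± 114 CPM in subcutaneous C26 and 92.2 ± 10.5 CPM in control muscle, with 1.52 ± 0.44 (adjusted p = 0.0108). Without both intermediate libraries the log2 fold changes were 2.44 and 1.78. Its paralog Usp25 had 175, 173, 183 and 129 CPM in splenic C26 muscle, against 188, 147, 177 and 183 CPM in sham muscle, and 169.7 to 241 CPM in subcutaneous C26, against 159.9 to 221 CPM in control muscle. Usp25 did not pass, at −0.07 ± 0.16 (adjusted p = 0.716) and 0.04 ± 0.16 (adjusted p = 0.844), and its groups overlapped. The ratio of Usp25 to Usp28 reads was accordingly 0.218 to 2.12 in splenic C26 against 2.17 to 2.39 in sham, and 0.518 to 2.302 in subcutaneous C26 against 1.80 to 2.43 in control libraries.

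Usp12, Usp46 and Usp1 are the proteases that the WD-repeat protein Wdr48 (UAF1) switches on. Usp12 (chr5:146734809-146795006, minus strand) was the one member that fell at both sites. It had 19.8, 22, 20.0 and 21.4 CPM in splenic C26 muscle, against 31.8, 28.3, 32.6 and 32 CPM in sham muscle. With the subcutaneous tumour it had 23.4, 21.4, 24.4 and 18.7 CPM, against 24.5, 29.8, 33.2 and 37.1 CPM in control muscle. Every splenic C26 library was below every sham library, and the subcutaneous C26 and control ranges nearly touched. The log2 fold change was −0.59 ± 0.13 (adjusted p = 0.00168) over sham and −0.50 ± 0.13 (adjusted p = 0.00447) over control, and it passed under every alternative setting run other than the 1.5-fold rule, which it missed over control. Usp46, its closest relative, did not pass at −0.61 ± 0.25 (adjusted p = 0.0528) and −0.44 ± 0.25 (adjusted p = 0.15). It had 10.1, 9.82, 5.78 and 7.84 CPM in splenic C26 muscle, against 14.9, 13.3, 12.8 and 10.3 CPM in sham muscle. Subcutaneous C26 libraries gave it 8.03, 7.78, 16.8 and 6.81 CPM, against 14.6, 12.7, 13.8 and 12.4 CPM in control muscle. All splenic C26 libraries lay below sham, and subcutaneous C26 replicate 3 lay above all control libraries while the other 3 lay below them. Without subcutaneous C26 replicate 3 the log2 fold change of Usp46 over control was −0.82 (adjusted p = 0.00158).

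Usp1, the protease of FANCD2 and PCNA in DNA repair, moved the other way. It had 23.5, 35.2, 25.2 and 37.8 CPM in splenic C26 muscle, against 19.4, 19.5, 20.5 and 17.4 CPM in sham muscle. Its subcutaneous C26 values were 38.5, 41.3, 19.3 and 39.4 CPM, against 18.7, 19.7, 19.9 and 20.1 CPM in control muscle. Only subcutaneous C26 replicate 3 fell inside the range of its tumour-free match. Log2 fold changes were 0.66 ± 0.20 (adjusted p = 0.0135) over sham and 0.82 ± 0.20 (adjusted p = 0.00431) over control. Usp48, also counted with the DNA repair members, did not pass in splenic C26 muscle at 0.12 ± 0.12 (adjusted p = 0.407) and rose in subcutaneous C26 muscle at 0.34 ± 0.12 (adjusted p = 0.027). Of the partner genes, Wdr48 itself stood at 0.34 ± 0.16 (adjusted p = 0.0863) over sham and rose by 0.67 ± 0.16 (adjusted p = 0.00411) over control, and Dmwd, a relative of the second activator Wdr20, rose by 1.25 ± 0.15 and 0.92 ± 0.15.

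Members of the nucleolus and of RNA processing rose at both sites (2 of 2, Usp36 and Usp39, against 22.1% of all genes). Usp42, a nuclear relative of Usp36, rose at both sites too. Usp36 (chr11:118259651-118290244, minus strand), which keeps nucleolar proteins stable for ribosome making, had 51.1, 59.9, 87.1 and 74.6 CPM in splenic C26 muscle, against 28.5, 26.7, 27.9 and 31.8 CPM in sham muscle. In subcutaneous C26 muscle it had 64.7, 79.3, 49.4 and 80.0 CPM, against 25.9, 25.5, 28.3 and 31.7 CPM in control muscle. No tumour library came near the tumour-free ranges, the intermediate ones included. The log2 fold change was 1.25 ± 0.17 (adjusted p = 0.00013) over sham and 1.29 ± 0.17 (adjusted p = 0.000103) over control, the lowest adjusted p-values of the family in both comparisons. Usp42 (chr5:143710325-143732280, minus strand) had 18.6, 29.2, 33.2 and 32.1 CPM in splenic C26 muscle, against 13.4, 11.2, 11.3 and 12.5 CPM in sham muscle. At the subcutaneous site it had 31.4, 35.8, 14.9 and 33 CPM, against 12.4, 13.4, 11.8 and 14.8 CPM in control muscle. Subcutaneous C26 replicate 3 was just above the highest control library and the other tumour libraries were well above. It rose by 1.22 ± 0.23 (adjusted p = 0.000742) over sham and 1.13 ± 0.23 (adjusted p = 0.00124) over control.

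Usp39 (chr6:72318678-72345184, minus strand), a splicing factor that has lost protease activity, had 25.4, 44.4, 72.4 and 60.8 CPM in splenic C26 muscle, against 25.1, 24.5, 23.6 and 24.9 CPM in sham muscle. With the subcutaneous tumour it had 40.3, 49.9, 33.1 and 43.4 CPM, against 23.2, 22.5, 25.1 and 24.9 CPM in control muscle. Splenic C26 replicate 1 exceeded the highest sham library by less than 1 CPM, and replicates 3 and 4 were the highest of all 16 libraries. Its log2 fold change was 1.05 ± 0.23 (adjusted p = 0.00185) over sham and 0.80 ± 0.23 (adjusted p = 0.00928) over control.

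**Figure D4:**
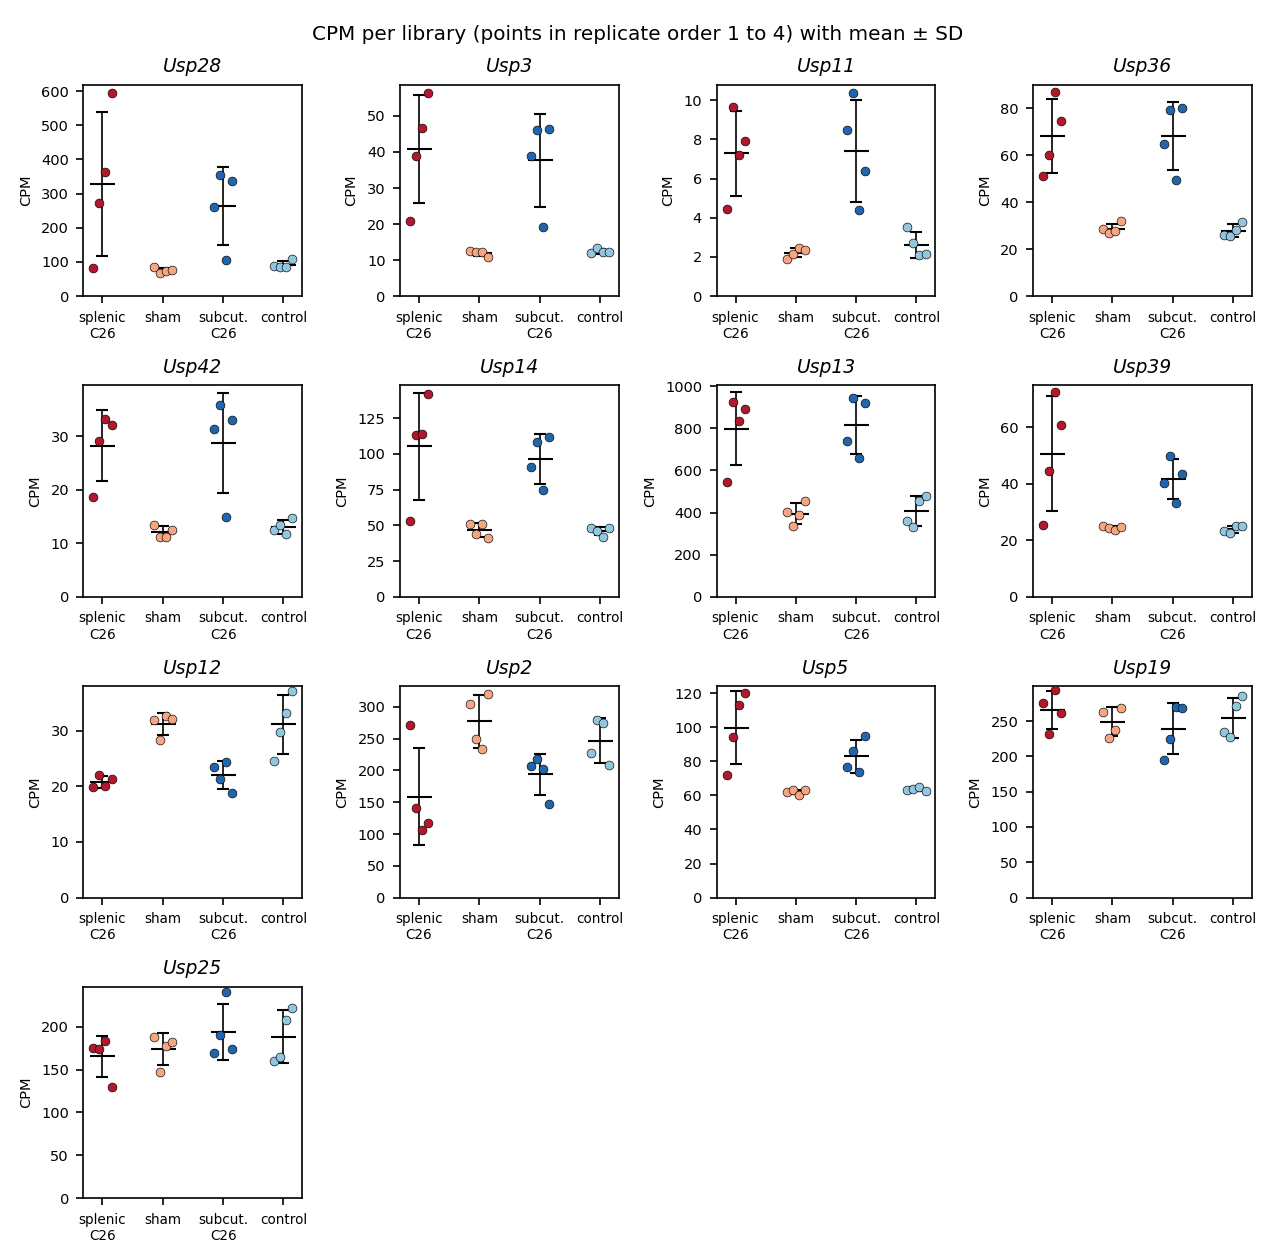
CPM of 13 Usp genes in each library, with points in replicate order and the mean ± SD per group; each panel has its own axis from 0, with splenic C26 left of sham and subcutaneous C26 left of control. The group means of Usp28 to Usp39 are higher and that of Usp12 is lower in both tumour groups, while Usp19 and Usp25 overlap between groups, and splenic C26 replicate 1 of Usp28 (82.7 CPM) lies at the sham level.

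Of 6 members of endosomes, the endoplasmic reticulum and receptor traffic, 2 rose in splenic C26 and 3 in subcutaneous C26 muscle, and 0 fell. Their shares higher were 33.3% and 50%, against 28.1% and 27% of all genes. Usp19 (chr9:108490602-108502337, plus strand) had 276, 231, 295 and 261 CPM in splenic C26 muscle, against 263, 226, 238 and 269 CPM in sham muscle. Subcutaneous C26 libraries gave it 194, 224, 269 and 269 CPM, against 235, 227, 272 and 285 CPM in control muscle. The ranges overlapped at both sites, and Usp19 did not pass at 0.09 ± 0.14 (adjusted p = 0.576) over sham and −0.09 ± 0.14 (adjusted p = 0.599) over control. A test that was not passed does not show that Usp19 was the same with and without a tumour. Usp8, which acts on the epidermal growth factor receptor at endosomes, had 40.1 to 62.8 CPM in splenic C26 against 34 to 38.7 CPM in sham muscle, and 43.9 to 55.9 CPM in subcutaneous C26 against 35.7 to 39.1 CPM in control muscle. Neither pair of groups overlapped, and Usp8 rose by 0.43 ± 0.12 (adjusted p = 0.00987) and 0.44 ± 0.12 (adjusted p = 0.00865). Its endosomal partner Hgs rose more, by 2.998 ± 0.41 and 2.74 ± 0.40. Usp32, linked to late endosomes, stood at 0.38 ± 0.16 (adjusted p = 0.054) over sham and rose by 0.66 ± 0.16 (adjusted p = 0.00318) over control.

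Usp20 and Usp33, close relatives that act on the β2-adrenergic receptor and on the thyroid hormone enzyme deiodinase, parted. Usp20 had 17.9, 18.6, 14.8 and 20.4 CPM in splenic C26 muscle, against 13, 11.5, 11.4 and 11 CPM in sham muscle. Its subcutaneous C26 values were 20.8, 21.3, 16.2 and 18.6 CPM, against 13.2, 12.5, 12.1 and 12.3 CPM in control muscle. All tumour libraries were above all matching tumour-free ones, with log2 fold changes of 0.62 ± 0.12 (adjusted p = 0.000947) and 0.62 ± 0.12 (adjusted p = 0.000936). Usp33 had 27.7 to 33.3 CPM in splenic C26 against 31.3 to 32.7 CPM in sham muscle, and 30.2 to 33.5 CPM in subcutaneous C26 against 30.2 to 34.2 CPM in control muscle. It did not pass, at −0.09 ± 0.09 (adjusted p = 0.443) and −0.00 ± 0.09 (adjusted p = 0.975). The ratio of Usp20 to Usp33 reads was 0.530 to 0.673 in splenic C26 against 0.348 to 0.416 in sham, and 0.537 to 0.672 in subcutaneous C26 against 0.360 to 0.438 in control libraries, without overlap at either site. This ratio does not depend on the scaling between libraries, and the difference was not tested.

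Of the 3 members with roles in autophagy and at mitochondria, Usp10 and Usp30 rose at both sites, against 22.1% of all genes. Usp30, which sits on the outer mitochondrial membrane and opposes parkin, had 15.1, 22.7, 21.8 and 25 CPM in splenic C26 muscle, against 11.3, 12.3, 12.7 and 13.5 CPM in sham muscle. In subcutaneous C26 muscle it had 18.3, 24.1, 15.2 and 21.6 CPM, against 11.6, 11.2, 12.9 and 13 CPM in control muscle. Its groups were apart at both sites, with log2 fold changes of 0.76 ± 0.16 (adjusted p = 0.00152) and 0.70 ± 0.16 (adjusted p = 0.00271). Usp10, which binds G3BP and acts on p53 and Beclin 1, rose by 0.33 ± 0.12 (adjusted p = 0.0285) and 0.46 ± 0.12 (adjusted p = 0.00584). Usp35, the third, fell in subcutaneous C26 muscle at −1.05 ± 0.33 (adjusted p = 0.0155), with 12 to 23 counts a library against 28 to 63 in control muscle, and did not pass in splenic C26 muscle at −0.53 ± 0.33 (adjusted p = 0.182).

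Among the 7 members known from signalling pathways, 2 rose and 1 fell in splenic C26 muscle, and 4 rose in subcutaneous C26 muscle. The shares higher were 28.6% and 57.1%, against 28.1% and 27% of all genes, so the first was near that of all genes. Usp2 (chr9:44067021-44095627, plus strand), at the top of the order per kb without a tumour, had 271, 140.3, 106 and 117 CPM in splenic C26 muscle, against 305, 249, 234 and 321 CPM in sham muscle. At the subcutaneous site it had 207, 219, 203 and 147 CPM, against 227, 279, 274 and 209 CPM in control muscle. Splenic C26 replicates 2, 3 and 4 lay well below all sham libraries and replicate 1 inside their range, while the subcutaneous C26 and control ranges overlapped. Usp2 fell at −0.80 ± 0.25 (adjusted p = 0.0147) over sham and did not pass at −0.35 ± 0.25 (adjusted p = 0.251) over control. Its call in splenic C26 muscle was lost in a fit of the 8 libraries of that comparison alone (adjusted p = 0.0517), and without splenic C26 replicate 1 its log2 fold change was −1.18. The abundant Usp47 had 445, 845, 805 and 702 CPM in splenic C26 muscle, against 534, 387, 497 and 508 CPM in sham muscle. With the subcutaneous tumour it had 728, 925, 672 and 748 CPM, against 450.3, 452, 596 and 654 CPM in control muscle. It rose by 0.54 ± 0.20 (adjusted p = 0.0365) and 0.51 ± 0.20 (adjusted p = 0.0459), with splenic C26 replicate 1 inside the sham range. Usp24, a large protease linked to p53, rose by 0.50 ± 0.18 (adjusted p = 0.027) and 0.64 ± 0.18 (adjusted p = 0.0082). Usp34, which acts on axin in Wnt signalling, stood at 0.19 ± 0.15 (adjusted p = 0.311) over sham and rose by 0.41 ± 0.15 (adjusted p = 0.0363) over control. Usp9x, which acts on SMAD4, passed in neither, at 0.08 ± 0.13 (adjusted p = 0.605) and 0.22 ± 0.13 (adjusted p = 0.157).

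Usp53 and Usp54, long listed as lacking protease activity, rose in splenic C26 muscle and did not pass in subcutaneous C26 muscle. Usp53 had 21.2, 22.6, 47.9 and 33.2 CPM in splenic C26 muscle, against 16.6, 15.2, 13.8 and 14.1 CPM in sham muscle. Subcutaneous C26 libraries gave it 22, 23.6, 15.3 and 21 CPM, against 15.7, 15.7, 19.4 and 16.9 CPM in control muscle. Splenic C26 and sham libraries were apart, replicates 3 and 4 standing highest, while subcutaneous C26 replicate 3 lay below all control libraries. The log2 fold change was 1.06 ± 0.22 (adjusted p = 0.00125) over sham and 0.28 ± 0.21 (adjusted p = 0.293) over control. Usp54 stood at 0.76 ± 0.25 (adjusted p = 0.0211) and 0.31 ± 0.25 (adjusted p = 0.31). Usp6nl, the GTPase-activating protein for Rab5, stood at −0.39 ± 0.20 (adjusted p = 0.105) over sham and fell at −0.49 ± 0.20 (adjusted p = 0.0469) over control, with 3.31 to 5.04 CPM in subcutaneous C26 against 4.54 to 6.61 CPM in control muscle.

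Of the members with no role list, Usp31, linked to NF-κB signalling, rose at both sites with 26.9, 32.1, 25.7 and 34.2 CPM in splenic C26 muscle, against 22.3, 17.2, 20.7 and 21.4 CPM in sham muscle. Its subcutaneous C26 values were 46, 47.3, 25 and 40.6 CPM, against 16.6, 17.8, 18.1 and 21.3 CPM in control muscle. The groups did not overlap, and log2 fold changes were 0.54 ± 0.17 (adjusted p = 0.0173) and 1.11 ± 0.18 (adjusted p = 0.00027). Usp29, an imprinted gene beside Peg3, had 1.27, 1.17, 1.08 and 0.741 CPM in subcutaneous C26 muscle, against 0.307, 0.592, 0.182 and 0.237 CPM in control muscle. These are 20 to 40 counts against 5 to 20. The log2 fold change was 1.67 ± 0.40, which is a description, since Usp29 may be in the table because it is high in this group. In splenic C26 muscle Usp29 had 0.194 to 0.614 CPM against 0.321 to 0.504 CPM in sham muscle and did not pass, at −0.18 ± 0.42 (adjusted p = 0.733). Usp40 rose in splenic C26 muscle at 0.31 ± 0.11 (adjusted p = 0.0329) and stood at −0.10 ± 0.11 (adjusted p = 0.496) in subcutaneous C26 muscle. Usp37, a protease of cyclin A, Usp38 and Usp45 passed at neither site, with log2 fold changes of −0.05 ± 0.11, 0.08 ± 0.14 and −0.22 ± 0.11 over sham and 0.06 ± 0.11, 0.04 ± 0.14 and −0.04 ± 0.11 over control.

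Whether the tumour site changed the response was asked by the difference between both tumour effects. In edgeR 0 of 44 members passed (0 of 13320 genes, 0 percent), 4 had an unadjusted p under 0.05 (851 of all genes), and DESeq2 and limma-voom called 0 members as well (DESeq2 called 86 of all genes). The 4 were Usp29 at −1.85 ± 0.58 (splenic effect minus subcutaneous effect, log2, adjusted p = 0.458), Usp53 at 0.79 ± 0.30 (adjusted p = 0.638), Usp40 at 0.41 ± 0.16 (adjusted p = 0.668) and Usp31 at −0.56 ± 0.25 (adjusted p = 0.745). The value of Usp29 is again a description, since its place in the table may rest on the subcutaneous C26 group. The standard errors leave differences of this size unresolved for most members. Between the tumour-free groups, sham over control, 0 of 44 passed in edgeR and 0 had an unadjusted p under 0.05, where 1 of 13320 genes passed (0.00751%). DESeq2, which called 58 of all genes there, and limma-voom called 0 members. The median log2 fold change of the members there was −0.02 (range −0.32 to 0.33). Usp28 was the one member whose ranges did not overlap, with 67.6 to 83.7 CPM in sham against 85.6 to 108 CPM in control libraries (2.39% of all genes were apart in this direction).

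The rise was not even over the tumour libraries. As log2(CPM + 1) over the mean of the matching tumour-free group, the median of the 44 members was 0.13, 0.39, 0.37 and 0.54 in splenic C26 replicates 1 to 4 and 0.43, 0.53, 0.22 and 0.45 in subcutaneous C26 replicates 1 to 4. The 2 intermediate libraries thus had the smallest medians of their groups. Of the 25 members that rose in splenic C26 muscle, splenic C26 replicate 1 was the lowest library of its group for 20 and lay inside the sham range for 5. Of the 26 that rose in subcutaneous C26 muscle, replicate 3 was the lowest for 23 and lay inside the control range for 4. The summed CPM of all 44 members was 3557, 4970, 5075 and 5124 in splenic C26 muscle, against 3573, 2959, 3339 and 3553 in sham muscle, and 4614, 5488, 4237 and 5065 in subcutaneous C26 muscle, against 3091, 3117, 3702 and 3911 in control muscle. Only splenic C26 replicate 1 lay inside its tumour-free range.

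**Figure D5:**
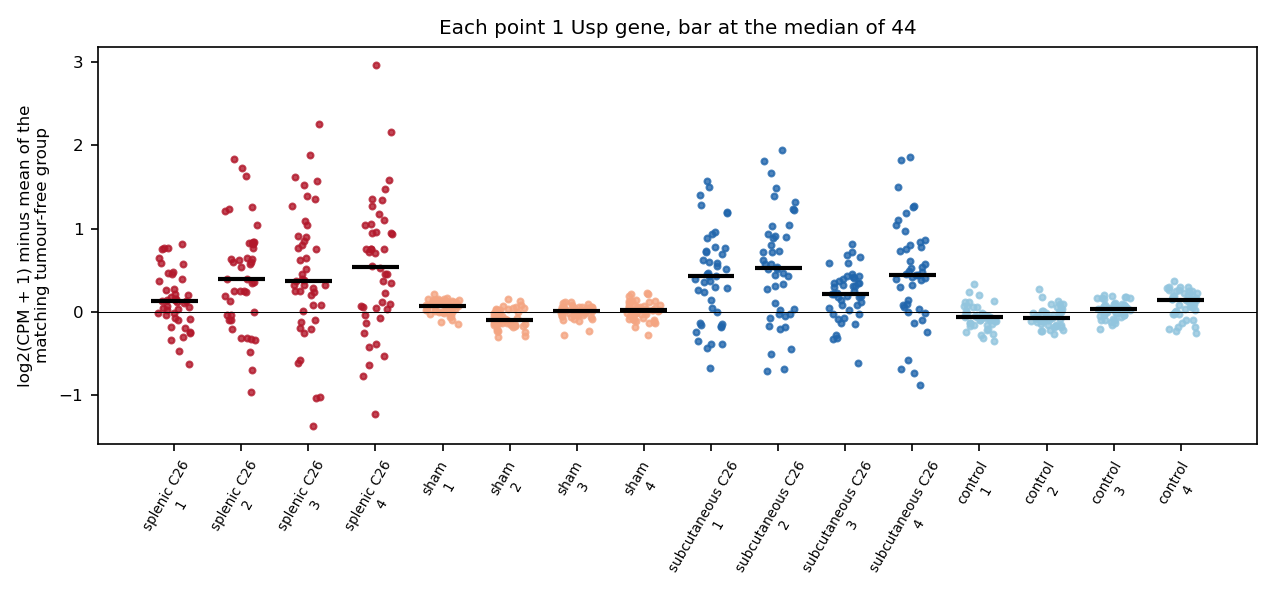
Each point is 1 of the 44 Usp genes in 1 library, as log2(CPM + 1) minus the mean of the matching tumour-free group, and the bar is the median of the 44. Tumour libraries have medians of 0.13 to 0.54, lowest in splenic C26 replicate 1 and, in the other tumour group, in subcutaneous C26 replicate 3 (0.22).

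For comparison, 39 other genes with a deubiquitinase fold, not all of them active proteases, were measured, and 16 rose and 2 fell in splenic C26 muscle and 15 rose and 2 fell in subcutaneous C26 muscle, with medians of 0.24 and 0.27. No test set them against the Usp genes. In shares, 41% rose with the splenic and 38.5% with the subcutaneous tumour, and 5.13% fell at each site. Of all genes 28.1% and 27% were higher, and 23.9% and 23.1% lower. The family counts below are small and are to be read against those shares, with 35.7% of OTU and 33.3% of Josephin genes higher at each site. By family, 6 of 10 JAMM genes rose at each site, among them the proteasome subunits Psmd7 (1.02 ± 0.16 and 1.03 ± 0.16) and Psmd14 (0.97 ± 0.21 and 0.70 ± 0.21), the second being the protease that frees ubiquitin as substrates enter. Of 14 OTU genes 5 rose and 1 fell at each site, with Otulin, which cuts linear chains, at 1.65 ± 0.35 and 1.65 ± 0.35. Of 4 UCH genes 1 rose in splenic C26 and 2 in subcutaneous C26 muscle, of 3 Josephin genes 1 and 1, and of 5 MINDY and ZUFSP genes 2 rose and 1 fell, and 1 rose and 1 fell. Of 3 genes with a Usp-like fold under other symbols, 1 and 0 rose. Genes listed as partners of Usp proteins (16 measured) rose in 7 cases and fell in 1 in splenic C26 muscle, and rose in 8 in subcutaneous C26 muscle. They include the proteasome gene Psmd2, to whose protein Usp14 binds (1.97 ± 0.29 and 1.85 ± 0.29). The list and its counts also hold the proteasome gene Adrm1 (1.71 ± 0.25 and 1.44 ± 0.24), which is not itself a partner of a Usp protein. Ubb, which encodes ubiquitin itself, rose by 2.27 ± 0.24 and 1.92 ± 0.24.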

How the data were processed

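The deposited count table held whole read counts per gene symbol, made with STAR and featureCounts per the labels, from 75-base paired ends of an Illumina HiSeq. The submitters' processing notes name FastQC, STAR, edgeR and mm10, while versions, annotation and strand setting were not given in those sources. A second deposited table held log2 values of the authors, which followed log2 CPM up to a shift for each gene and each library (residual SD 0.0159 over 6199 genes) and served as an alternative. The 4013 blank lines without a gene were left out. No gene had fewer than 4 libraries over 0.5 CPM before TMM scaling, so low genes had been left out before deposit, and filterByExpr took out 0 more.

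Tests were run on all 13320 genes in R 4.3.3 by the quasi-likelihood test of edgeR 4.0.16 (robust, TMM scaling, group means over 16 libraries, 12 residual degrees of freedom, Benjamini-Hochberg adjustment over all genes, threshold 0.05). CPM are TMM-scaled, ± after a log2 fold change is the SE, and coordinates and exon lengths are from GENCODE M21 (mm10). Groups came from the labels, and replicate numbers do not pair libraries. Chi-square per degree of freedom between 2 libraries of a group was 12.9 or more, so none counted as a repeat. The members, role lists, marker lists and rules were chosen with earlier results of these data known. Genes given in every library were by rule the 8 highest and 8 lowest by the mean of both log2 fold changes among members that passed in both comparisons in 1 direction (1 was lower), plus Usp2, Usp5, Usp14, Usp19 and Usp25, and up to 4 examples a partner or family list by smallest p. Usp1, Usp20 to Usp22, Usp29 to Usp31, Usp46, Usp47, Usp53 and Wdr48 were added after their values were seen. Alternatives used RLE and upper-quartile scaling, DESeq2 1.42.0, limma 3.58.1, other filters and omitted libraries. The fit was tested on simulated data.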

Additional observations from a re-analysis of the deposited data

Results flagged for a closer look

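For 6 of 176 combinations of a Usp gene and a group, 1 of the 4 libraries stood apart from the other 3 by more than Dixon's 95% limit, where chance alone gives about 1 in 20 groups. In subcutaneous C26 muscle both cases were replicate 3, with Usp1 at 19.3 CPM below the other 3 (38.5 to 41.3 CPM) and Usp46 at 16.8 CPM above them (6.81 to 8.03 CPM). In splenic C26 muscle it was replicate 1, with Usp37 at 15.8 CPM against 12.9 to 13.3 CPM in the other 3. In control muscle all 3 cases were replicate 4, with Usp28 at 108 CPM against 85.6 to 88.9, Usp45 at 39.3 CPM against 34.4 to 35.1, and Usp49 at 7.83 CPM against 5.85 to 6.01 CPM.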

How the results depend on the processing

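Of the calls, 16 of 27 in splenic C26 over sham and 17 of 29 in subcutaneous C26 over control held under every alternative run for the gene other than the 1.5-fold rule, and 15 and 16 under that rule as well (Usp7 over sham and Usp12 over control missed it). The 17 and 16 over control include Usp29, whose place in the table may rest on the subcutaneous C26 group. Usp29 was run in 26 alternatives, since it was not among genes with at least 1 CPM in all 16 libraries. Members higher with the splenic tumour numbered 25, and 15 under upper-quartile scaling, with 18 to 26 when 1 library was left out. The 1.5-fold rule lowered the 25 as well, taking out Usp7, Usp8 and Usp10 among others. Members lower numbered 2, against 7 under upper-quartile scaling, 4 among genes with at least 1 CPM in all 16 libraries, 5 without both intermediate libraries and 2 to 5 with 1 library left out (5 without splenic C26 replicate 1). With the subcutaneous tumour 26 were higher, against 16 under upper-quartile scaling, 17 when a call also needed 1.5-fold, and 17 to 26 with 1 library left out (17 without subcutaneous C26 replicate 2). Members lower numbered 3, against 5 under upper-quartile scaling and 1 each with the 1.5-fold rule and without 4 libraries (splenic C26 replicates 1 and 3, control replicate 1 and subcutaneous C26 replicate 4) left out for markers of other tissues, where control libraries higher in hepatocyte markers stayed in. The causes were not tested, except that the 1.5-fold rule removes calls by its construction. The difference between tumour effects and sham over control gave 0 members under every alternative.

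Direction turned only for members that had not passed. Over sham, upper-quartile scaling gave log2 fold changes of −0.0647 for Usp15, −0.11 for Usp19, −0.0366 for Usp34, −0.13 for Usp38, −0.0799 for Usp48 and −0.13 for Usp9x, and leaving out those 4 libraries gave −0.00403 for Usp19 and −0.12 for Usp38. With 1 library left out, Usp25 ran from −0.13 to 0.0360, Usp29 from −0.55 to 0.0369 and Usp38 from −0.0343 to 0.19. Over control, upper-quartile scaling gave −0.0044 for Usp15, −0.23 for Usp21, −0.19 for Usp25, −0.18 for Usp37, −0.19 for Usp38 and −0.0159 for Usp9x. The filter at 1 CPM gave −0.11 for Usp21, −0.0639 for Usp25, −0.0508 for Usp37 and −0.0653 for Usp38. Without both intermediate libraries Usp21 stood at −0.14, Usp25 at −0.0802, Usp33 at 0.0245 and Usp38 at −0.0365, and without those 4 libraries Usp25 at −0.00268, Usp38 at −0.0160 and Usp54 at −0.0410. Usp21 was also below 0 under RLE (−0.0099), DESeq2 (−0.00997), limma-voom (−0.0153) and limma-trend (−0.0127), and Usp33 was at 0.0069 without the 10 most abundant genes. With 1 library left out, Usp21 ran from −0.14 to 0.0761, Usp25 from −0.0803 to 0.13, Usp33 from −0.0488 to 0.0252, Usp38 from −0.0364 to 0.0932 and Usp45 from −0.0846 to 0.00043. Depth limits Usp29, Usp27x and Usp35 most, which had at most 63 counts in any library.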
